A study of Mus musculus with 6 samples.

Results

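The genes described here encode 4 DNA-binding proteins of the HMG-box class in mouse thymus cells: Tcf7 (TCF1), Lef1 (LEF1), Tox (TOX) and Tox2 (TOX2). They were taken by gene symbol, and all 4 were found among the 47729 Ensembl genes counted in each library and passed the filter on low counts, which kept 18174 genes. RNA came from DN1a/b cells, the earliest thymocytes, which still have other blood lineages open to them, sorted by flow cytometry from C57BL/6 mice. RBPJ uninduced mice are described in the labels as without RBPJ expression. RBPJ 6 days induced mice began in the same RBPJ-deficient state and were then made to express it by doxycycline, as an injection (2 mg/ml) followed by drinking water (1 mg/ml). Control mice kept RBPJ throughout. Each group has 2 libraries, but whether a pair stems from 2 animals is not stated. In the fit of all 6 libraries, p-values rest on the spread between libraries of a group, estimated over all 3 groups. That spread may be technical. The labels name neither the alleles and promoters behind RBPJ loss and induction nor any doxycycline for Control or uninduced mice. In comparisons with induced libraries, RBPJ and doxycycline cannot be told apart.

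RBPJ is the DNA-binding partner of activated Notch receptors. Notch signalling turns on Tcf7 in the earliest thymocytes, and TCF1 in turn opens chromatin and activates T-lineage genes. TCF1 and LEF1 bind the same DNA motif and can recruit beta-catenin or Groucho (TLE) corepressors. TOX is needed for CD4 T-cell and innate lymphoid development, and TOX2 is its close relative, known from natural killer and follicular helper T cells.

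The libraries held 5098927 to 12932928 counts. Levels are given as CPM (counts scaled by library total and by the trimmed mean of M-values), and per kilobase of merged exon (RPKM) where genes are compared with each other. Rbpj stood at 28.2 and 30.0 CPM in RBPJ uninduced, 198 and 203 CPM in RBPJ 6 days induced and 74.1 and 72.9 CPM in Control libraries, lowest in uninduced and highest in induced libraries. The uninduced mean was 39.6% of the Control mean, so transcript of the gene remained, and which part of Rbpj was deleted was not examined. The sorted stage was set against 6 of its genes, of which 2 were called lower in uninduced than in Control libraries. Over all tested genes, 2.93% were called lower there. Kit, which encodes the stem cell factor receptor, stood at 398 to 630.4 CPM in uninduced, 618 to 631 CPM in induced and 372 to 515 CPM in Control libraries. Cd44, an adhesion receptor used in the gate, stood at 198 and 196 CPM in uninduced, 349 and 307 CPM in induced and 390.2 and 342 CPM in Control libraries (uninduced against Control -0.89, adjusted p = 0.0188). Ptprc, which encodes the leukocyte antigen CD45, was also lower (-1.16, adjusted p = 0.00956). Libraries went against the sort in places. Control replicate 2 held 618 CPM in sum of 8 markers of later thymocytes (Cd4, Cd8a, Cd8b1, Bcl11b, Rag1, Rag2, Ptcra and Trac), against 23.5 to 149 CPM in the other 5 libraries, with none of the 8 at 0. RBPJ uninduced replicate 2 held 737 CPM in sum of 8 B-lineage markers, against 7.16 to 41.7 CPM in the other 5, with none of the 8 at 0. Summed myeloid markers stood at 4360.1 and 3259.9 CPM in uninduced, 751 and 1642 CPM in induced and 577 and 508 CPM in Control libraries. Mpo was the largest part of that sum, with means of 3215 CPM in uninduced, 952 CPM in induced and 458 CPM in Control libraries. Csf1r, in the same list, was at 26.1, 47.6 and 31.5 CPM in that order. Summed mast cell and erythroid markers were also highest in the uninduced group (678 to 1029.95 and 181 to 539 CPM). Induced libraries held 390 and 344 CPM of mast cell and 148 and 83.6 CPM of erythroid markers. Both were above the Control libraries (69.9 to 84.7 and 0.990 to 21.05 CPM). Natural killer and innate lymphoid markers summed to 154 and 168 CPM in uninduced, 155 and 124 CPM in induced and 56.0 and 43.3 CPM in Control libraries. In uninduced replicate 1, 4 of these 8 markers were at 0. Among them, mean Il1rl1 was 73.8 CPM in uninduced, 34.9 CPM in induced and 1.73 CPM in Control libraries. In that order, Nkg7 was at 35.7, 35.4 and 35.3 CPM, and Ncr1, highest in induced libraries, at 3.96, 13.4 and 1.10 CPM. Dendritic cell markers summed to 74.1 and 84.9 CPM in uninduced, 225 and 207 CPM in induced and 227 and 167 CPM in Control libraries. Thymic stromal markers summed to 96.1 and 100.5 CPM in uninduced, 159 and 162 CPM in induced and 162 and 164 CPM in Control libraries. Both sums were lowest in the uninduced libraries, as Tcf7 and Tox were, but a single gene was the largest part of each. Pecam1 made up most of the stromal sum, with means of 88.0 CPM in uninduced, 154 CPM in induced and 153 CPM in Control libraries. For the dendritic sum it was Flt3, also among the 6 genes of the sorted stage (38.4, 162 and 128 CPM in that order). Of 7 tested markers in each list, 4 stromal and 2 dendritic ones had values above 0 in uninduced against Control libraries. The part of these cells in the results that follow was not tested. In bulk RNA, fewer cells of a type and less RNA per cell cannot be told apart.

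Tcf7 was the most abundant of the 4 genes per length in every group, and its mean level in uninduced libraries was 4.81% of the Control mean. Tcf7 (ENSMUSG00000000782, mm10 chromosome 11, 52252371 to 52283014, minus strand) stood at 13.0 and 27.4 CPM in RBPJ uninduced, 175 and 213 CPM in RBPJ 6 days induced and 361 and 479.6 CPM in Control libraries. The 3 groups did not overlap, with the induced libraries between the other groups. Among 14143 tested protein-coding genes ordered by mean RPKM, Tcf7 had rank 4691 in uninduced, 262 in induced and 98 in Control libraries. Tcf7 was 20.5-fold lower in uninduced than in Control libraries, a log2 difference of -4.36 with an SE of 0.346 (edgeR's quasi-likelihood test with Benjamini-Hochberg adjustment over all genes, adjusted p = 0.000387). In induced libraries it was 9.46-fold higher than in uninduced ones (log2 difference 3.24, SE 0.331, adjusted p = 0.00305). The induced mean was 46.2% of the Control mean, and that difference did not pass (-1.11, SE 0.300, adjusted p = 0.342).

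Tox followed the same order at lower levels. Tox (ENSMUSG00000041272, mm10 chromosome 4, 6686353 to 6991557, minus strand) stood at 9.04 and 5.35 CPM in RBPJ uninduced, 82.8 and 95.8 CPM in RBPJ 6 days induced and 163 and 128 CPM in Control libraries. As for Tcf7, no group overlapped another. With 2 libraries a group this is a weak criterion, and Tcf7l2 and Tox4 also met it. Tox4 did so without a call in induced against uninduced libraries. The share of all genes that met it was not counted. Tox was 20.6-fold lower in uninduced libraries than in those of Control mice (log2 difference -4.37, SE 0.303, adjusted p = 0.000273) and 12.6-fold higher in induced libraries than in uninduced ones (3.66, SE 0.296, adjusted p = 0.000951). Its induced mean was 61.2% of the Control mean, a difference that did not pass (-0.71, SE 0.253, adjusted p = 0.704).

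Of the 4 genes, 2 (Tcf7 and Tox) were called lower in uninduced than in Control libraries, where 5.42% of all tested genes were called, 2.93% lower and 2.49% higher. The same 2 were called higher in induced than in uninduced libraries, where 1.96% of all tested genes were called, 1.55% higher and 0.413% lower. None was called between induced and Control libraries, where 0.187% of all tested genes were called, every one of them higher. There, unadjusted edgeR p-values were under 0.05 for 3 of the 4 (Tcf7, Lef1 and Tox), at ranks 238, 512 and 513 of 18174 genes. Tcf7l2, with an unadjusted p of 0.0479, had rank 923, so many other genes were also under 0.05. DESeq2, which called more genes than edgeR in this comparison, gave 1 call among the 4, Tcf7. Both calls of Tcf7 and of Tox held in every alternative fit, each left-out library included. The comparisons share libraries, so they are not independent of each other.

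The difference in Tcf7 between induced and Control libraries passed in some alternative fits. These were DESeq2 (-1.18, adjusted p = 0.00111), an edgeR fit of those 4 libraries alone (-1.16, adjusted p = 0.0241), a fit with no filter on low counts (-1.08, adjusted p = 0.0034), and fits without RBPJ uninduced replicate 1 (-1.10, adjusted p = 0.0036) or RBPJ uninduced replicate 2 (-1.11, adjusted p = 0.00423). Over all alternatives of this comparison the value ran from -1.27 to -0.93. For Tox the same difference ran from -0.91 to -0.47 and passed in none of them.

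**Figure D1:**
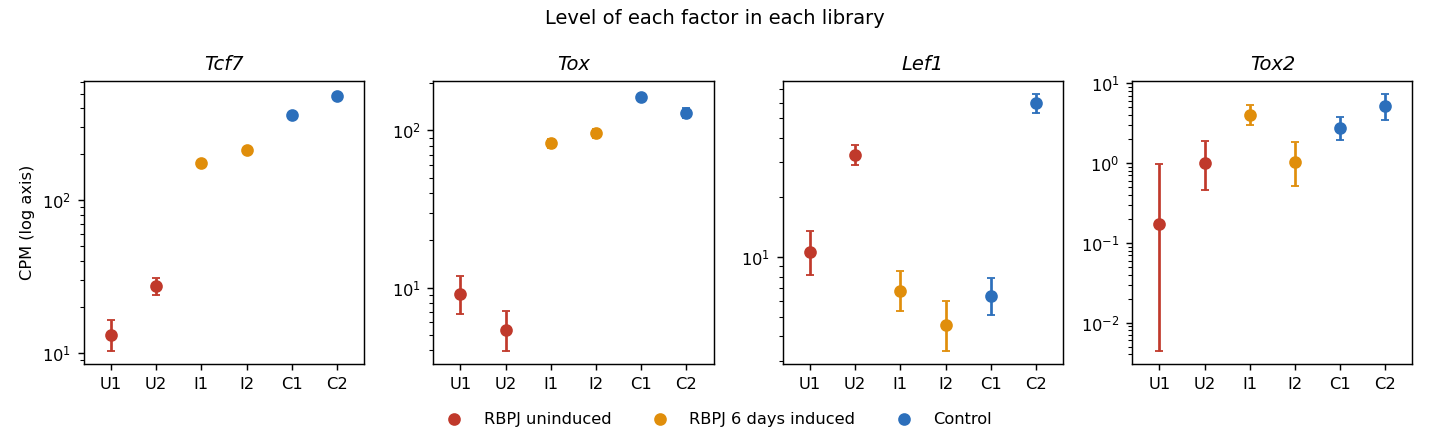
Levels of Tcf7, Tox, Lef1 and Tox2 in CPM on log axes in each library of RBPJ uninduced (U1, U2), RBPJ 6 days induced (I1, I2) and Control (C1, C2) mice; bars are exact 95% Poisson intervals of the count, which cover counting error only. Tcf7 and Tox are lowest in both uninduced libraries and highest in both Control libraries, while Lef1 is highest in U2 (32.9 CPM) and C2 (59.6 CPM).

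Lef1 did not follow this order. Lef1 (ENSMUSG00000027985, mm10 chromosome 3, 131110471 to 131224356, plus strand) stood at 10.6 and 32.9 CPM in RBPJ uninduced, 6.80 and 4.57 CPM in RBPJ 6 days induced and 6.40 and 59.6 CPM in Control libraries. The uninduced libraries lay between the Control libraries, and both induced libraries were below both uninduced ones. Replicates differed by 9.32-fold in Control and 3.10-fold in uninduced mice, far beyond counting error. No comparison passed: -0.57 for uninduced against Control (SE 0.842, adjusted p = 0.821), -1.94 for induced against uninduced (SE 0.884, adjusted p = 0.338) and -2.52 for induced against Control (SE 0.897, adjusted p = 0.704). A single library decided the sign of the first value, which was 1.66 without Control replicate 2 and 0.01 without RBPJ uninduced replicate 1. The third value was -0.21 without Control replicate 2. The second difference passed without RBPJ uninduced replicate 1 (-2.47, adjusted p = 0.0371) and without a filter on low counts (-1.89, adjusted p = 0.00066), where the third passed as well (-2.43, adjusted p = 4.12e-06).

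Of the 2 libraries highest in Lef1, RBPJ uninduced replicate 2 had the highest sum of B-lineage markers and Control replicate 2 the highest sum of later thymocyte markers. Later thymocytes and early B cells both normally express Lef1. RBPJ uninduced replicate 2 also had the highest erythroid sum (539 CPM), while RBPJ uninduced replicate 1, at 10.6 CPM of Lef1, had the highest myeloid (4360.1 CPM) and mast cell (1029.95 CPM) sums. In uninduced replicate 2 the later thymocyte markers summed to 149 CPM, of which Rag1, a recombination enzyme of both T and B precursors, made up 126 CPM. In the 4 other libraries, Lef1 stood at 10.6 CPM in RBPJ uninduced, 6.80 and 4.57 CPM in RBPJ 6 days induced and 6.40 CPM in Control mice. The part of those cells in the Lef1 counts was not tested. Tcf7, also a gene of later thymocytes, was 1.33-fold higher in Control replicate 2 than in replicate 1, and its call between uninduced and Control libraries also passed without Control replicate 2 (-4.24, adjusted p = 0.000668).

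**Figure D2:**
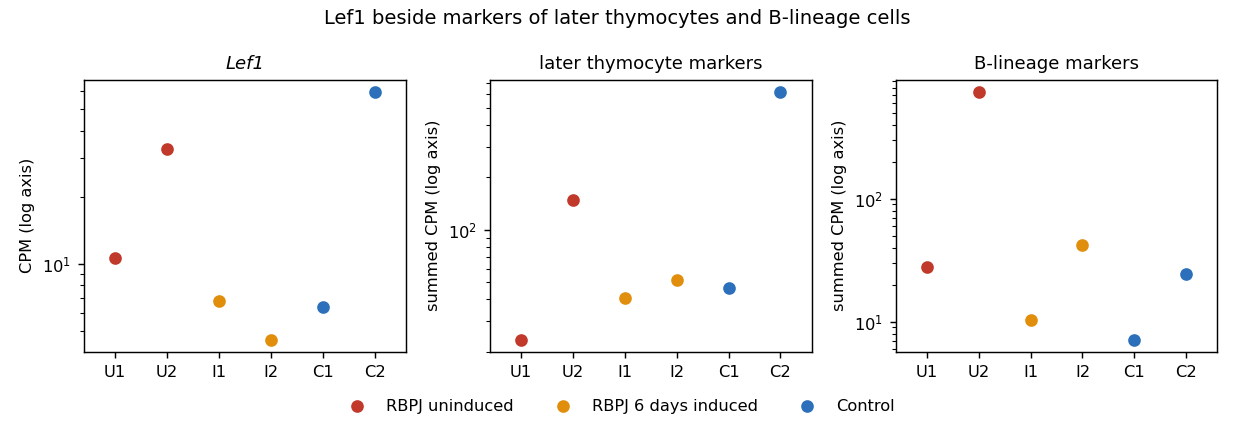
Lef1 in CPM (left), the summed CPM of 8 later thymocyte markers (middle) and of 8 B-lineage markers (right) in each library, on log axes, with groups and labels as in the plot of levels by library. RBPJ uninduced replicate 2 is highest for B-lineage markers (737 CPM), Control replicate 2 for later thymocyte markers (618 CPM), and these libraries are also the highest for Lef1.

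Tox2 was barely detected. Tox2 (ENSMUSG00000074607, mm10 chromosome 2, 163203125 to 163324170, plus strand) had 1 and 9 counts in RBPJ uninduced, 46 and 11 counts in RBPJ 6 days induced and 36 and 29 counts in Control libraries. These counts came to 0.174 and 1.00 CPM in uninduced, 4.06 and 1.02 CPM in induced and 2.74 and 5.13 CPM in Control libraries. Both uninduced libraries were below both Control libraries, while the induced libraries spanned most of the range. The differences were -2.65 for uninduced against Control (SE 1.28, adjusted p = 0.309), 2.04 for induced against uninduced (SE 1.25, adjusted p = 0.493) and -0.62 for induced against Control (SE 1.17, adjusted p = 1). The exact 95% Poisson interval of the single count in uninduced replicate 1 reached 5.6 counts, or 0.969 CPM, close to the level of uninduced replicate 2.

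Of the other members of both families, Tcf7l2 alone passed in both comparisons with uninduced libraries, and Tox4 passed in the first. Tcf7l2, which encodes the TCF/LEF factor TCF4 known from Wnt signalling in the gut, stood at 15.1 and 12.3 CPM in RBPJ uninduced, 44.5 and 41.6 CPM in RBPJ 6 days induced and 65.8 and 59.8 CPM in Control libraries. It fell in uninduced against Control libraries by 2.20 on the log2 scale (SE 0.255, adjusted p = 0.0022) and rose in induced against uninduced libraries by 1.66 (SE 0.252, adjusted p = 0.0148). The second call was lost in a fit of those 4 libraries alone (adjusted p = 0.0837) and without RBPJ 6 days induced replicate 1 (adjusted p = 0.0525). Tox4, a broadly expressed relative of Tox, stood at 53.0 and 71.3 CPM in uninduced, 95.3 and 88.7 CPM in induced and 115 and 120.1 CPM in Control libraries. It fell in uninduced against Control libraries by 0.92 (SE 0.209, adjusted p = 0.0382), and the value for induced against uninduced libraries, 0.56, missed the threshold (adjusted p = 0.223).

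The fall of Tox4 was not firm. With the 4 compared libraries alone its adjusted p was 0.12. It also missed the threshold without Control replicate 1 (0.153) or 2 (0.0907), RBPJ uninduced replicate 1 (0.0507) or RBPJ 6 days induced replicate 1 (0.0754). Tox4 shares 933 exon bases with Mettl3 on the opposite strand, and the strand setting of the counting is not known. Tcf7l1 and Tox3 had at most 24 and 31 counts in any library, and neither passed in any comparison.

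**Figure D3:**
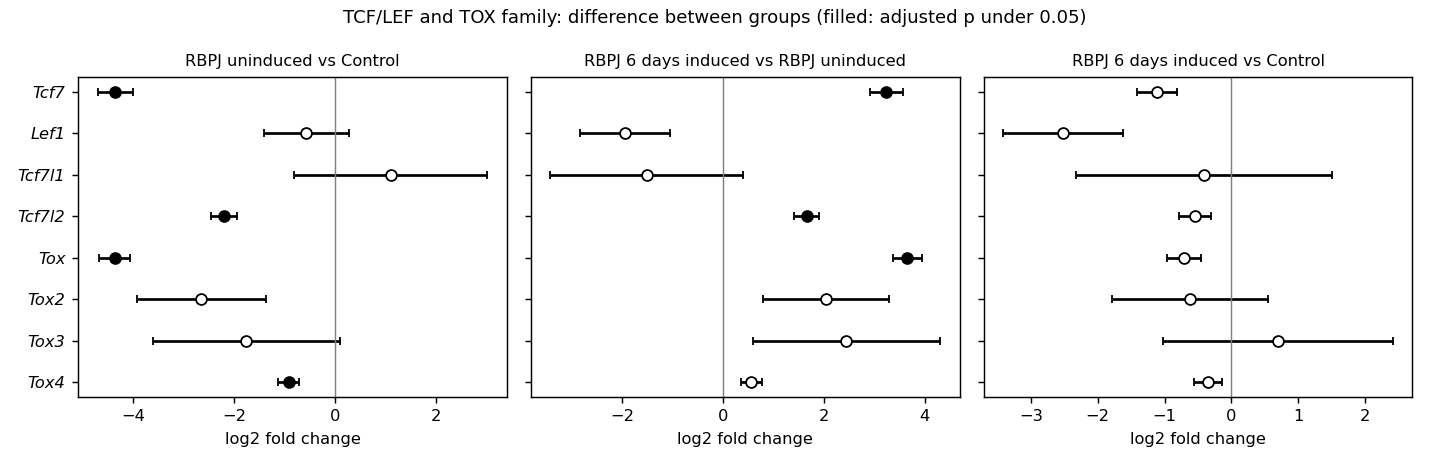
Log2 fold change (point) with its standard error (bar) for the 8 TCF/LEF and TOX family genes in the 3 comparisons; filled points had an adjusted p under 0.05 by edgeR's quasi-likelihood test. Tcf7, Tcf7l2, Tox and Tox4 are filled to the left of 0 in uninduced against Control, and Tcf7, Tcf7l2 and Tox to the right of 0 in induced against uninduced.

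Set against each other per length, the make-up of both families differed between groups. Tcf7 made up 59.6% and 64.2% of the summed RPKM of Tcf7, Lef1, Tcf7l1 and Tcf7l2 in RBPJ uninduced libraries, 91.7% and 93.7% in RBPJ 6 days induced and 94.4% and 92.8% in Control libraries. Lef1 made up 14.5% and 23.0% in uninduced, 1.06% and 0.601% in induced and 0.500% and 3.45% in Control libraries. The summed level of the TCF/LEF family was 8.34 and 16.3 RPKM in uninduced, 72.9 and 86.5 RPKM in induced and 146 and 197 RPKM in Control libraries, so the total of the family was also lowest in the uninduced libraries.

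Relative to Tcf7 per length, Lef1 stood at 24.3% and 35.8% in RBPJ uninduced libraries, 1.16% and 0.641% in RBPJ 6 days induced and 0.530% and 3.71% in Control libraries. A ratio within a library does not depend on how libraries were scaled, and the uninduced libraries were apart from the other 4. Its denominator, Tcf7, was lowest in the uninduced libraries, so the ratio restates that fall and does not show a rise of Lef1. In CPM, Lef1 in uninduced libraries (10.6 and 32.9) lay between the Control libraries (6.40 and 59.6). Uninduced replicate 1, with 27.8 CPM of summed B-lineage markers, was at 24.3%, and replicate 2, with 737 CPM, at 35.8%. The part of B-lineage cells in this ratio was not tested.

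In the TOX family Tox4 held the largest share in 5 of 6 libraries, and Tox in Control replicate 1 alone. Tox made up 13.0% and 6.24% of the summed RPKM of Tox, Tox2, Tox3 and Tox4 in RBPJ uninduced libraries, 41.4% and 47.5% in RBPJ 6 days induced and 55.0% and 46.4% in Control libraries. Tox4 made up 83.6% and 91.1% in uninduced, 52.1% and 48.1% in induced and 42.4% and 47.5% in Control libraries. Its larger share in uninduced libraries came with the lower level of Tox, as Tox4 itself was lowest there in CPM. These shares rest on the merged exon length of all annotated transcripts of a gene, and another choice of transcript would change them.

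**Figure D4:**
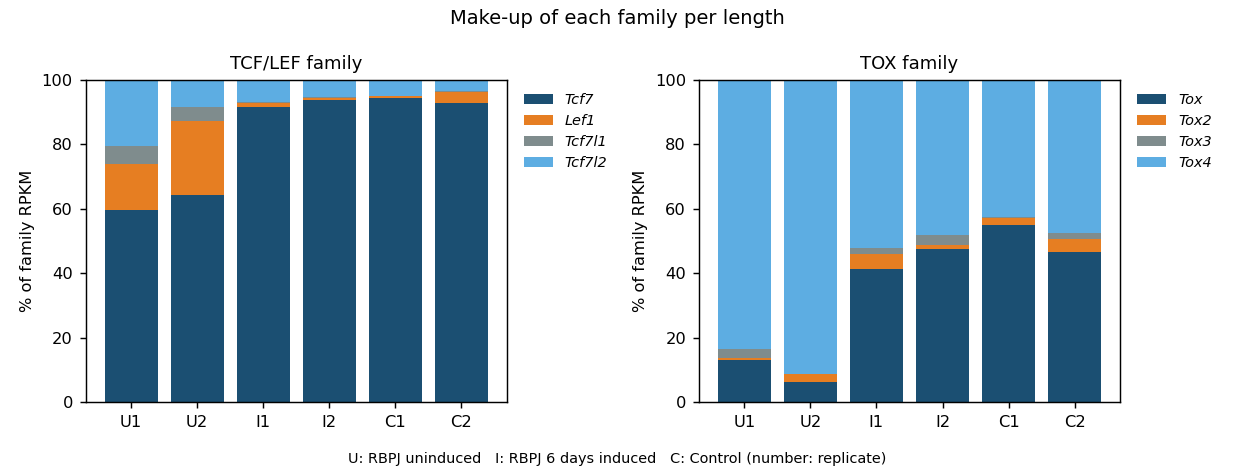
Share of the summed RPKM of each family taken by its 4 genes, in percent, in each library (U RBPJ uninduced, I RBPJ 6 days induced, C Control). Tcf7 takes 59.6% and 64.2% of the TCF/LEF sum in the uninduced libraries and at least 91.7% in the other 4, and Tox4 takes 83.6% and 91.1% of the TOX sum in the uninduced libraries and at most 52.1% in the other 4.

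RNAs annotated within the Tcf7 gene were, like Tcf7, lowest in uninduced libraries in CPM. They were chosen after their values were seen. The long noncoding RNA Gm26551 (same strand, no shared exon bases) had 0 and 21 counts in uninduced, 56 and 80 counts in induced and 116 and 80 counts in Control libraries. Scaled by library, these were 0 and 2.34 CPM in uninduced, 4.95 and 7.45 CPM in induced and 8.83 and 14.2 CPM in Control libraries. The 0 in uninduced replicate 1 allows up to 0.522 CPM, and the highest level was 14.2 CPM, in Control replicate 2. The antisense RNA A630014C17Rik had 0 and 1 counts in uninduced, 12 and 6 in induced and 14 and 24 in Control libraries. Neither RNA shares exon bases with Tcf7, but reads of unspliced Tcf7 RNA cannot be told apart from Gm26551 by strand. For A630014C17Rik this holds only if strand was ignored in counting, which is not known. The antisense RNA Gm43352, which shares 1208 exon bases with Lef1, had 23 counts in Control replicate 2 and 0 to 7 in the other libraries.

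The table of RefSeq promoters (GRCm38.p6, 250 bases before to 50 after a start) matched 3 of the 4 genes, all but Tox, with 2 windows for Tcf7, 4 for Lef1 and 5 for Tox2. They were searched on both strands for GTGGGAA, a core RBPJ motif, and ATCAAAG, a core TCF/LEF motif. The letters GTGGGAA occur in 6.38% and ATCAAAG in 3.73% of all 32851 windows. The windows of Tcf7 held neither. Overlapping windows of Lef1 held 1 GTGGGAA, and overlapping windows at a downstream start of Tox2 held 1 ATCAAAG. No match of one motif overlapped a match of the other. Each is shown with its neighbouring bases because it is the only match at its gene, with the motif in capitals, and a match is not a binding site. The first lies at chr3:131110323-131110352 and the second at chr2:163225302-163225331, both on the plus strand.
Lef1: gaggagaagcgGTGGGAAggcgcaaccgct
Tox2: gatggatttggATCAAAGaggttaaataac

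The genes whose pattern over the 6 libraries was most like each factor were named by the smallest root mean square difference of centred log2 CPM values. This is a description of 6 libraries and carries no test. For Tcf7 they were Arpp21 (0.25 log2 units), Evpl (0.32), Vash1 (0.32), Chst2 (0.34) and Lck (0.34), among 10282 candidates. Lck, a kinase of T-cell receptor signalling, stood at 3.303 and 10.7 CPM in RBPJ uninduced, 75.7 and 91.1 CPM in RBPJ 6 days induced and 114 and 113 CPM in Control libraries. Tox was 29th in likeness to Tcf7, and Tcf7 was 22nd in likeness to Tox (0.59 log2 units).

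For Tox the nearest were Il17rb (0.27), a chain of the interleukin 25 receptor, Pglyrp2 (0.32), Lag3 (0.32), an inhibitory receptor of T cells, Plekha7 (0.34) and Sstr2 (0.34). Plekha7 stood at 8.17 and 7.24 CPM in RBPJ uninduced, 121 and 97.1 CPM in RBPJ 6 days induced and 265 and 223 CPM in Control libraries. For Lef1 the nearest were farther away: Sorcs2 (0.57), Rasgrp1 (0.59), Fn1 (0.60), Lrig1 (0.61) and Prickle1 (0.61). Rasgrp1, an activator of RAS in T-cell receptor signalling, stood at 10.1 and 48.6 CPM in uninduced, 13.9 and 12.8 CPM in induced and 6.09 and 58.2 CPM in Control libraries. For Tox2 the nearest were Poln (0.32), Sh2d2a (0.34), Apol8 (0.35), Fads3 (0.42) and Map3k8 (0.43), at a depth where its own pattern is loose.

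Among the partners of TCF/LEF factors, beta-catenin itself showed no call while its adaptors did. Of 7 tested coactivator genes, 2 fell and none rose in RBPJ uninduced against Control libraries, where 2.93% of all genes fell and 2.49% rose. Their median log2 fold change was -0.55, against -0.02 over all genes. Bcl9l, an adaptor that ties beta-catenin to the transcription machinery, stood at 30.8 and 31.1 CPM in RBPJ uninduced, 153 and 132 CPM in RBPJ 6 days induced and 247 and 182 CPM in Control libraries. It fell in uninduced against Control libraries by 2.80 (SE 0.222, adjusted p = 0.000387) and rose in induced against uninduced libraries by 2.20 (SE 0.218, adjusted p = 0.00278). Its paralog Bcl9 fell by 1.57 (SE 0.330, adjusted p = 0.028) in uninduced against Control libraries, a call lost without either Control library (adjusted p = 0.0985 and 0.0523 without replicates 1 and 2), with library totals only (adjusted p = 0.0612) and with the 4 libraries alone (adjusted p = 0.127). Ctnnb1, which encodes beta-catenin, stood at 204 and 168 CPM in uninduced, 182 and 212 CPM in induced and 191 and 192 CPM in Control libraries (uninduced against Control -0.04, SE 0.181, adjusted p = 0.96).

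Of 11 tested corepressors and inhibitors, Tle3 alone passed in uninduced against Control libraries, where 5.42% of all genes passed. Tle3, a Groucho corepressor of TCF/LEF and other factors, stood at 129 and 169 CPM in RBPJ uninduced, 257 and 255 CPM in RBPJ 6 days induced and 370.0 and 363 CPM in Control libraries, and fell by 1.30 (SE 0.185, adjusted p = 0.0055). Its difference between induced and uninduced libraries was 0.78 (adjusted p = 0.0708), and passed in DESeq2 (adjusted p = 0.00097). None of 7 destruction complex genes and none of 7 tested Wnt feedback targets passed in edgeR or DESeq2 in any of the 3 comparisons. At an unadjusted edgeR p under 0.05, the first list had 1 gene in uninduced against Control libraries, Csnk1a1, a kinase that primes beta-catenin for decay. Its p had rank 3083 among all 18174 tested genes, so p-values this small were common there. The second list had 1 gene in induced against Control libraries, Znrf3, which removes Wnt receptors (rank 550). Neither list had one elsewhere. The general beta-catenin target Axin2 belongs to both lists and had an unadjusted p of 0.126 in uninduced against Control libraries. Of 13 tested Wnt receptor and Dishevelled genes, the receptor Fzd7 alone rose in uninduced against Control libraries (2.01, SE 0.395, adjusted p = 0.0214). There, 2.49% of all genes rose. The call of Fzd7 was lost without Control replicate 2 and with the 4 libraries alone (adjusted p = 0.0812).

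Other HMG-box factors of lymphoid cells, the SOX genes, were mixed. Of 5 tested, 2 fell and none rose in uninduced against Control libraries, where 2.93% of all genes fell and 2.49% rose. Of the 5 values, 3 were below 0 and 2 above. In induced against uninduced libraries 1 of the 5 rose, where 1.55% of all genes rose. Sox4, which acts in early lymphocytes, stood at 135 and 136 CPM in RBPJ uninduced, 379 and 504 CPM in RBPJ 6 days induced and 441 and 301 CPM in Control libraries. It fell by 1.46 in uninduced against Control libraries (SE 0.227, adjusted p = 0.0079) and rose by 1.71 in induced against uninduced libraries (SE 0.229, adjusted p = 0.00801). Sox13, a factor of gamma delta T cells, stood at 11.5 and 6.13 CPM in uninduced, 12.2 and 6.52 CPM in induced and 39.6 and 30.8 CPM in Control libraries. It fell in uninduced against Control libraries by 2.01 (SE 0.449, adjusted p = 0.0349), and its value for induced against uninduced libraries was 0.10 (SE 0.442, adjusted p = 0.951). The induced libraries were both below the Control libraries (-1.91, adjusted p = 0.206), a difference that passed in DESeq2 (adjusted p = 0.013). The call of Sox13 in uninduced against Control libraries was lost without Control replicate 1 (adjusted p = 0.163) or 2 (adjusted p = 0.0735), with library totals only (adjusted p = 0.0531) and with the 4 libraries alone (adjusted p = 0.092).

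Of 10 tested T-lineage genes listed as downstream of TCF1, 3 fell and none rose in uninduced against Control libraries. There, 2.93% of all genes fell. All 10 values of the list were below 0, with a median of -2.50 against -0.02 over all genes. These counts rested in part on Control replicate 2, the library high in later thymocyte markers, 2 of which (Bcl11b and Rag2) are among the 10. Without it 2 genes fell, 8 of 10 values were below 0 and the median was -1.23. Without Control replicate 1, 7 of 12 tested genes fell and the median was -3.35. Control replicate 2 was 25.8-fold above replicate 1 for Bcl11b, 25.6-fold for Cd3g, 13.3-fold for Cd3e and 5.77-fold for Thy1, the last 3 surface proteins of T cells. Bcl11b and Cd3g (0.914 CPM) were lower in Control replicate 1 than in either uninduced library. Gata3, the T-lineage factor downstream of Notch and TCF1, stood at 2.26 and 6.58 CPM in RBPJ uninduced, 36.6 and 37.3 CPM in RBPJ 6 days induced and 45.1 and 32.5 CPM in Control libraries. It fell by 3.09 in uninduced against Control libraries (SE 0.457, adjusted p = 0.00617) and rose by 3.02 in induced against uninduced libraries (SE 0.455, adjusted p = 0.0145). Lck fell by 3.96 (SE 0.430, adjusted p = 0.00173) and rose by 3.52 (SE 0.424, adjusted p = 0.00557) in the same comparisons, and Cd5, an inhibitory T-cell surface protein, fell by 2.04 (SE 0.454, adjusted p = 0.0343). Bcl11b, the commitment factor that TCF1 helps to activate, stood at 5.74 and 5.68 CPM in uninduced, 7.06 and 12.2 CPM in induced and 5.10 and 131 CPM in Control libraries, so its level was high in Control replicate 2 alone.

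Among the calcium-signalling inputs known to act on Tox in T cells, 3 of 9 fell and none rose in uninduced against Control libraries. Over all genes there, 2.93% fell and 2.49% rose. The median of the list was -0.93, against -0.02 over all genes, and ran from -1.39 to -0.39 without 1 library. Nfatc2, an NFAT factor, stood at 13.2 and 15.7 CPM in RBPJ uninduced, 49.2 and 52.5 CPM in RBPJ 6 days induced and 53.2 and 40.7 CPM in Control libraries. It fell by 1.70 in uninduced against Control libraries (SE 0.268, adjusted p = 0.00823) and rose by 1.81 in induced against uninduced libraries (SE 0.268, adjusted p = 0.0136). Nfatc1 fell by 1.17 (SE 0.209, adjusted p = 0.014) and rose by 1.05 (SE 0.208, adjusted p = 0.0401), and the nuclear receptor Nr4a1 fell by 3.82 (SE 0.667, adjusted p = 0.0129). The third NFAT gene of the list, Nfatc3, was at -0.13 (adjusted p = 0.775), and none of the 3 calcineurin genes passed.

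A list of 6 Notch signalling genes held Rbpj, the receptors Notch1 and Notch3, and the target genes Hes1, Nrarp and Dtx1. Of these, 4 fell in uninduced against Control libraries, where 2.93% of all genes fell. In induced against uninduced libraries 5 rose, where 1.55% of all genes rose. Both counts include Rbpj, which the design itself removed and induced. Without 1 library they ran from 3 to 6 in each comparison. Notch1, the receptor of early thymocytes, stood at 97.7 and 68.8 CPM in RBPJ uninduced, 519.7 and 484 CPM in RBPJ 6 days induced and 924 and 782 CPM in Control libraries. Hes1, a direct Notch target, stood at 1.39 and 6.80 CPM in uninduced, 53.1 and 45.6 CPM in induced and 132 and 94.99 CPM in Control libraries.

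TCF1 and TOX also act in innate lymphoid precursors. Of 7 factors of these cells, Zbtb16 alone passed in uninduced against Control libraries, where 5.42% of all genes passed. It encodes PLZF and rose by 2.29 (SE 0.540, adjusted p = 0.0424), opposite to Tcf7 and Tox, and the call was lost without Control replicate 2 (1.58, adjusted p = 0.124), with library totals only (adjusted p = 0.0548) and with the 4 libraries alone (adjusted p = 0.155). Id2, the inhibitor of E proteins in innate lymphoid cells, was at 0.16 (adjusted p = 0.924).

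A fit of the 4 compared libraries alone, with fewer degrees of freedom, also ended the uninduced against Control calls of Gata3 (adjusted p = 0.0571), Cd5 (0.119), Nfatc1 (0.0708), Nfatc2 (0.0612) and Nr4a1 (0.0852), and the induced against uninduced calls of Gata3 (0.0761), Lck (0.0563), Nfatc1 (0.0865) and Nfatc2 (0.0563). Without Control replicate 1 the uninduced against Control calls of Cd5 (adjusted p = 0.098), Nfatc1 (0.098) and Nfatc2 (0.0623) were lost. That of Cd5 was also lost without Control replicate 2 (adjusted p = 0.156) and without RBPJ 6 days induced replicate 1 (adjusted p = 0.0538). The induced against uninduced call of Nfatc1 was lost without induced replicate 1 (adjusted p = 0.153) or 2 (adjusted p = 0.14).

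**Figure D5:**
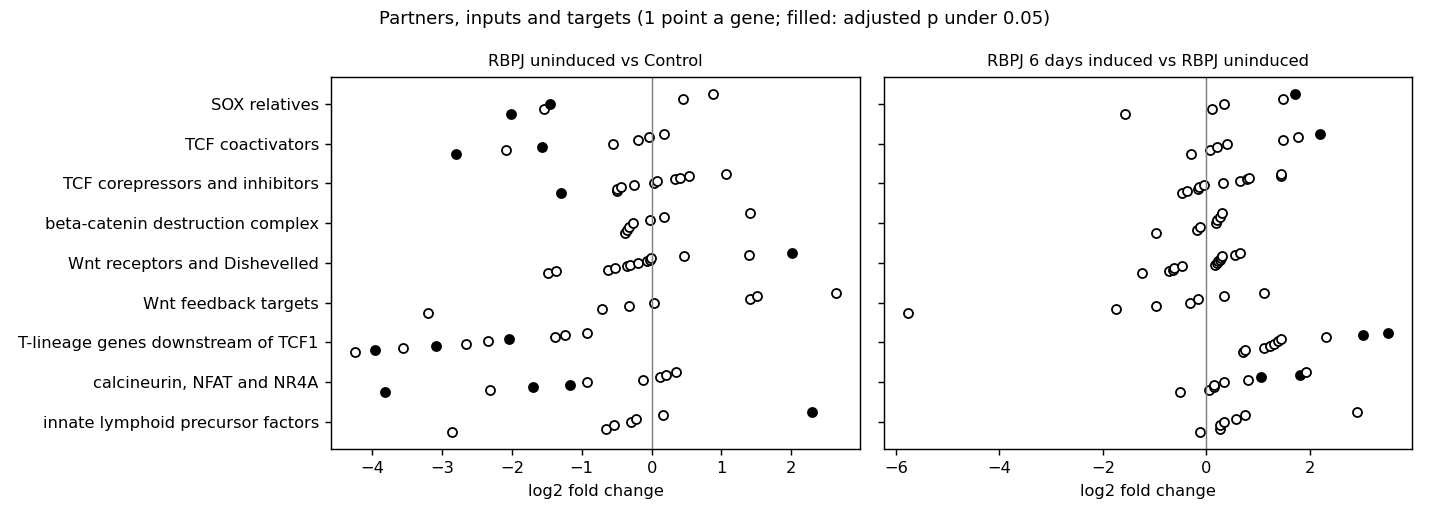
Log2 fold change of each tested gene of 9 lists of partners, inputs and targets of TCF/LEF and TOX factors in RBPJ uninduced against Control (left) and RBPJ 6 days induced against RBPJ uninduced (right); filled points had an adjusted p under 0.05 by edgeR. All 10 tested T-lineage genes downstream of TCF1 lie left of 0 on the left, 8 of 10 without Control replicate 2, and right of 0 on the right, 3 and 2 of them filled.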

How the data were processed

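Each deposited file holds 1 library as raw read counts, listed by Ensembl gene ID. Per the submitters' processing notes, HISAT2, StringTie, HTSeq and mm10 were used, with no version given; neither the gene annotation nor the strand option of the counting is stated in the labels. Names, coordinates and exon lengths came from GENCODE M21 (GRCm38, the same build), which matched 47310 of 47729 IDs, and promoters from RefSeq (GRCm38.p6). Counts were filtered (filterByExpr, minimum count 10, total 15), scaled by TMM and fitted with edgeR 4.0.16 (R 4.3.3) over all 6 libraries, by group alone, leaving 3 residual degrees of freedom. P-values were adjusted by Benjamini-Hochberg across 18174 tested genes (threshold 0.05), and a standard error is the log2 fold change divided by the square root of F. Alternatives were DESeq2 1.42.0, other scalings and filters, a fit of 4 libraries, a block for replicate number, and omission of each library in turn. Replicates differed beyond sampling noise (chi-square per degree of freedom 16.4 to 54.1). The members and gene lists were chosen with earlier results of these data known. Named genes were the members and relatives, up to 3 genes past the threshold per list with the smallest p, and the 5 protein-coding genes most like each member (average log2 CPM of at least 2, prior count 2). Pecam1, Flt3, Ctnnb1, Axin2, Csnk1a1, Znrf3, Cd3e, Cd3g, Thy1, Bcl11b, Nfatc3, Id2, Gm26551, A630014C17Rik and Gm43352 were named outside that rule, after their values were seen. So were Mpo, Csf1r, Il1rl1, Nkg7 and Ncr1.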

Additional observations from a re-analysis of the deposited data

How the results depend on the processing

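Of the alternative values for the 4 factors, 145 kept direction and side of the threshold, among them every value of Tcf7 and Tox in comparisons with uninduced libraries, 8 newly passed and 3 changed sign. For the other named genes 530 kept both, 21 newly passed, 41 missed the threshold and 5 changed sign. The number of genes called was 985 in uninduced against Control, 357 in induced against uninduced and 34 in induced against Control libraries. DESeq2 called 1675, 1033 and 212 in that order, no filter on low counts 1540, 989 and 304, and the 4 compared libraries alone 219, 71 and 177. Without 1 library the counts ran from 445 to 2000, 171 to 1374 and 30 to 337. Such fits, with 1 library in a group, assume that it varies like the other groups. For Tcf7 in induced against Control libraries the value was -1.18 in DESeq2, -1.08 without a filter, -1.16 in the 4 libraries alone and -1.27 to -0.93 without 1 library. Without a filter Lef1 was at -1.89 in induced against uninduced and -2.43 in induced against Control libraries. Without 1 library Lef1 ran from -1.59 to 1.66 in uninduced against Control and from -2.47 to -0.88 in induced against uninduced libraries. In induced against Control libraries Tox2 ran from -1.89 to 0.04 and Tcf7l1 from -1.40 to 5.97. In induced against uninduced libraries Sox13 ran from -0.39 to 0.67 and Zbtb16 from -0.40 to 0.29. The cause of these changes was not tested. Libraries of the same replicate number did not deviate together (correlations of -0.0407, 0.0253 and 0.0107). With 1 difference between replicates per group, this cannot show whether the numbers pair samples. With a replicate block, 108 genes were called in induced against Control libraries, Tcf7l1 was at 0.51 there, and no call of the 4 factors changed. With library totals only, the median of all genes in uninduced against Control libraries was -0.132, against -0.018 with the trimmed mean of M-values. At 1 to 46 counts, depth limits what can be said of Tox2.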
